A study of Mus musculus with 2 samples.

Results

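The genes described here are 29 members of cholesterol and fatty acid synthesis, chosen by name and followed step by step. They are 18 enzymes of the sterol pathway, 5 genes here called the regulators and 6 enzymes of fatty acid synthesis and desaturation. The regulators are Srebf1 and Srebf2, which encode the sterol regulatory element binding proteins (SREBPs), with Scap, Insig1 and the cholesterol carrier Stard4. All 29 were found among the 23628 genes of the deposited values. They were measured by RNA-sequencing of Sox9 GFPHi chondrospheres in 2 libraries of 1 condition, called replicate 1 and replicate 2. The donors were pups at postnatal day 7 of a homozygous reporter line, in which GFP is expressed from the Sox9 locus behind an internal ribosome entry site. Femoral head cells without the lineage markers CD31, Ter119 and CD45 were sorted for high GFP and grown as colonies in methylcellulose under low oxygen. The medium held fetal bovine serum, FGF2, BMP4, IGF1, LIF and TGF-β1 in both libraries. With 1 condition no test between groups could be made, so levels are given per library, always replicate 1 before replicate 2, and differences between the libraries are differences between replicates. The methods of the study treat each pup as a biological replicate, but the labels of the libraries do not name the animals.

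Cells make cholesterol from acetyl-CoA through mevalonate, farnesyl diphosphate, squalene and lanosterol, and fatty acids from cytosolic acetyl-CoA through malonyl-CoA. When sterols in the endoplasmic reticulum run low, the escort protein SCAP carries the SREBPs to the Golgi, where proteolysis frees a factor that activates genes of both pathways, and INSIG1 holds SCAP back when sterols are plentiful. SREBP-2, the product of Srebf2, acts mainly on sterol genes, and SREBP-1, the product of Srebf1, mainly on fatty acid genes. In growing cartilage, chondrocytes need sterols and lipids for membranes and for the sterol modification of hedgehog ligands.

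SREBPs read a sterol regulatory element in promoters together with the factors NF-Y, which binds CCAAT boxes, and SP1, which binds GC boxes. These letters were searched on both strands in the 250 bases before each RefSeq gene start (GRCm38.p6), for which 23 of the 29 members had a sequence, all but Fdps, Fdft1, Sqle, Stard4, Scd1 and Scd2. The promoters of 3 members are shown because they stand for the sterol arm, the regulators and the fatty acid arm, on the gene's strand from 5′ to 3′, with matched letters in capitals. Hmgcs1 is at chr13:119690101-119690350 on the plus strand, Insig1 at chr5:28071162-28071411 on the plus strand and Fasn at chr11:120824548-120824797 on the minus strand.
Hmgcs1: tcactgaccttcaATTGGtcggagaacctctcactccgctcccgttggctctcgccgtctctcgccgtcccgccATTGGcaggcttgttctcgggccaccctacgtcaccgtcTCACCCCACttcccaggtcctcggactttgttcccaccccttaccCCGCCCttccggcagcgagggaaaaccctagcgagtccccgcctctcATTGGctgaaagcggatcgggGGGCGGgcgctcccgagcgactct
Insig1: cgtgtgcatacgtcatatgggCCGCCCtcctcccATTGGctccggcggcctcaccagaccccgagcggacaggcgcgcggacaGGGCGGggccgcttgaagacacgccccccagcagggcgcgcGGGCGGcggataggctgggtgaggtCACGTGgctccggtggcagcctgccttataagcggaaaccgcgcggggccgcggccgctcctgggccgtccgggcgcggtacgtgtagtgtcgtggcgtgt
Fasn: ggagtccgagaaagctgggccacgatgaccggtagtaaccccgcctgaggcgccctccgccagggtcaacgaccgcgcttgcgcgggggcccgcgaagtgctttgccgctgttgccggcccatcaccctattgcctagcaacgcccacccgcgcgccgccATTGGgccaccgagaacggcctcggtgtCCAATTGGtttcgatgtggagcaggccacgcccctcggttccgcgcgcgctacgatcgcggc

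The sterol regulatory element letters TCACNCCAC were found in 1 of the 23 member promoters, that of Hmgcs1, between 137 and 129 bases before the start. The same letters were in 1.23% of all genes with a promoter sequence and in 1.23% of expressed genes, meaning genes that averaged 1 CPM or more over both libraries (CPM, the reads of a gene scaled to a library total of 1000000). CCAAT, or ATTGG on the other strand, was found in 18 of 23 members (78.3%), against 37.5% of all genes and 40.9% of expressed genes. GGGCGG, or CCGCCC, was found in 19 of 23 members (82.6%), against 35.4% and 65.7%. Both of these boxes were present in 16 of 23 members (69.6%), 13.8% of all genes and 27.1% of expressed genes. A gene with several starts was counted when any of its sequences matched, so both boxes may lie before different starts of a gene. The E-box CACGTG, which SREBPs can also bind, was found in 5 of 23 members (21.7%), 6.86% of all genes and 10.2% of expressed genes. In Hmgcs1 the sterol element lay among 3 inverted CCAAT boxes and 2 GC boxes, and in Fasn a pair of overlapping CCAAT boxes on opposite strands lay between 62 and 55 bases before the start. A match is a description of the letters and not of binding. Only these exact letters were searched, so a promoter without a match was not shown to lack a sterol element.

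Levels are CPM after subtraction of the constant offset of 0.0001 in the deposited values. The lowest values imply about 43300000 and 42200000 reads on genes, so that a gene at 10 CPM rests on about 433 and 422 reads in replicates 1 and 2. Intervals given below are 95% intervals from these read numbers and cover counting error only. The 10 highest genes held 43.4% and 34.7% of the CPM in replicates 1 and 2, and the median expressed gene was higher in replicate 2 by 0.30 on the log2 scale. Differences between the libraries are therefore given as the log2 ratio of replicate 2 to replicate 1 relative to that median gene, here called the relative log2 ratio. In bulk RNA, fewer cells of a type and less RNA per cell cannot be told apart. The cartilage label was checked with 8 chondrocyte markers, which summed to 183883 and 128111 CPM, and the lowest of them, Sox9, averaged 265 CPM. Relative to the median gene 7 of the 8 were lower in replicate 2, among them Col9a1 at -1.09 and Matn3, with 741 and 53.1 CPM, at -4.10. Of the fat cell markers, Adipoq, Plin1, Cidec and Cfd were listed at 0 in both libraries, and the 8 listed markers summed to 40.0 and 23.4 CPM. Plin4 was the highest of these, at a relative log2 ratio of -1.76, and Fabp4 had 6.89 and 6.62 CPM. Pparg went the other way, with 1.92 and 5.50 CPM and a relative log2 ratio of 1.17. Macrophage and leukocyte markers summed to 3.30 and 3.59 CPM with Adgre1 and Tyrobp at 0, and endothelial markers to 0.231 and 0.166 CPM with 5 of 6 at 0. Fibroblast markers summed to 4761 and 3474 CPM, nearly all from Col1a1, Col1a2 and Dcn, at relative log2 ratios of -1.30, -0.35 and -2.02, with Pi16 at 0. Osteoblast markers summed to 4.72 and 51.5 CPM, mostly Dmp1 in replicate 2. The part of these cell types, and of the marker differences between the libraries, in the values below was not tested.

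In the chondrospheres, transcripts of all 29 members were detected in both libraries. An average of 10 CPM or more was reached by 19 of the 29, against 33.4% of all genes listed and 7903 of the 12631 expressed genes. The 19 were 10 of the 18 sterol enzymes, 4 of the 5 regulators and 5 of the 6 fatty acid enzymes. The median member averaged 21.5 CPM and the median expressed gene 16.2 CPM. Scd2 stood at percentiles 98.9 and 98.7 of all genes in replicates 1 and 2, and Tm7sf2 at percentiles 54.0 and 54.1. Per kilobase (kb) of annotated exon, the median level was 3.55 CPM for the sterol enzymes, 9.79 CPM for the regulators and 15.7 CPM for the fatty acid enzymes. The members thus lay on both sides of the median expressed gene, and the median fatty acid enzyme was above the median sterol enzyme. Spearman's rho between the libraries was 0.933 across the 29 members, a description across genes that share both libraries.

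**Figure D1:**
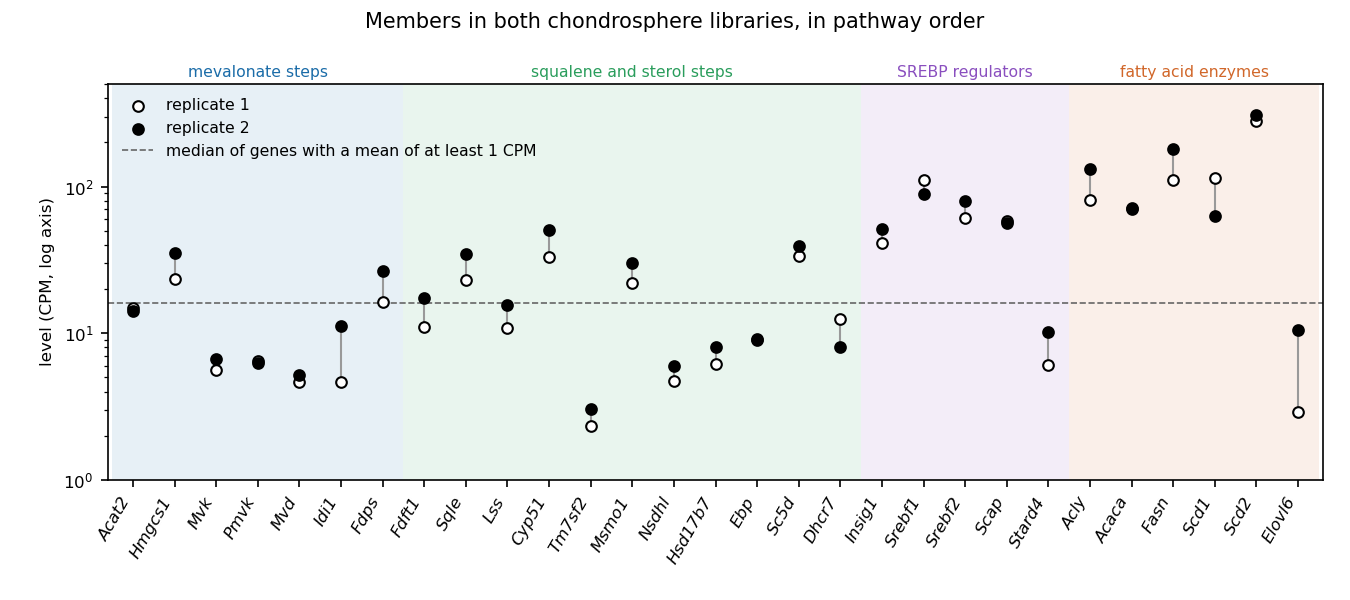
Levels in CPM on a log axis of the 29 members in pathway order, with open circles for replicate 1, filled circles for replicate 2 and a dashed line at 16.2 CPM, the median of expressed genes. The mevalonate and sterol enzymes lie on both sides of the line, between 2.34 and 50.2 CPM, while 5 of the 6 fatty acid enzymes and 4 of the 5 regulators lie above it in both libraries.

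The mevalonate part of the pathway holds 7 members, with means from 4.94 to 29.5 CPM. Acat2, the cytosolic thiolase that joins acetyl-CoA units, had 14.9 and 14.3 CPM in replicates 1 and 2. Hmgcs1, which makes HMG-CoA and whose promoter held the sterol element, had 23.5 and 35.5 CPM. Mvk, which phosphorylates mevalonate, had 5.66 and 6.71 CPM. Per kb of exon, the mean of Mvk was 2.31 CPM against 6.42 for Hmgcs1 and 5.72 for Acat2, so the kinase was the lower in each library. Pmvk, the kinase that follows, had 6.52 and 6.26 CPM. Mvd, the decarboxylase that yields isopentenyl diphosphate, had 4.69 and 5.20 CPM. Idi1, which isomerizes isopentenyl diphosphate, had 4.69 and 11.2 CPM. Idi1 had the highest relative log2 ratio of the sterol enzymes, 0.93 (counting interval 0.70 to 1.17). Fdps, which builds farnesyl diphosphate, the branch point to sterols and prenylated proteins, had 16.3 and 26.6 CPM, a relative log2 ratio of 0.40 (0.26 to 0.54). Acat2 and Pmvk lay on the other side of the median gene, each at -0.36, and the intervals of Mvk and Mvd included 0. The median of the 7 was -0.06, with 3 above and 4 below the median gene.

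Reads of several members can be shared with other genes, which limits their levels. Of the 50-base words in the transcripts of Acat2, 39.1% also occur in its paralog Acat3, which was assigned 0.985 and 0.907 CPM. For Fdps, 26.2% of words occur in other genes, mostly in Gm43738, assigned 0.00160 and 0.00233 CPM. For Idi1 the share was 17.7%, with Gm13502 at 0.140 and 0.152 CPM. Partek E/M estimates how such reads divide among genes, so these values are less certain than those of Pmvk and Mvd, which shared no word with another annotated gene. Fdft1 shared 9.38% of its words with Gm6781, and 774 of its exonic bases overlap Ctsb on the opposite strand, a gene with 380 and 372 CPM. Tm7sf2 shared 9.87% with the overlapping gene Vps51, which had 17.03 and 19.3 CPM. The libraries were stranded per the study's methods, but whether the counting used strand is not given in the sources used here. Reads of Fdft1 and Ctsb in the overlap may therefore not be separated.

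The squalene and sterol part holds 11 members, with means from 2.698 to 41.7 CPM. Fdft1, squalene synthase and the committed step to sterols, had 10.998 and 17.4 CPM in replicates 1 and 2. Sqle, squalene epoxidase and a rate-limiting enzyme of the pathway, had 23.1 and 34.6 CPM. Lss, which cyclizes the epoxide to lanosterol, had 10.9 and 15.6 CPM. All 3 were higher in replicate 2 than the median gene, with relative log2 ratios of 0.36, 0.28 and 0.21 and intervals above 0. Cyp51, which removes a methyl group from lanosterol, had 33.1 and 50.2 CPM and was the highest sterol enzyme per kb of exon in both libraries, though not per kb of the longest coding transcript. Tm7sf2, a sterol reductase whose reaction the lamin B receptor Lbr also carries out, had the lowest CPM, with 2.34 and 3.06, or about 101 and 129 reads. Per kb, Tm7sf2 had 0.530 and 0.695 CPM and Lbr 2.87 and 3.89 CPM, so Lbr was the higher of the pair in both. Msmo1, the sterol methyl oxidase, had 22.02 and 30.1 CPM. Nsdhl, which acts after it in removing those methyl groups, had 4.71 and 5.98 CPM. Hsd17b7, the reductase of the same removal, had 6.19 and 8.09 CPM. Per kb the means were 4.24 CPM for Msmo1, 1.87 for Nsdhl and 1.40 for Hsd17b7, with Msmo1 above both partners in each library.

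At the end of the pathway, Ebp, which shifts a double bond of the sterol ring, had 8.94 and 9.18 CPM in replicates 1 and 2. Sc5d, the sterol desaturase, had 33.9 and 39.4 CPM. Dhcr7, which reduces a double bond of the sterol ring, had 12.5 and 8.02 CPM. Dhcr7 was the sterol enzyme furthest below the median gene in replicate 2, at a relative log2 ratio of -0.94 (-1.14 to -0.75).

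Of the 18 sterol enzymes, 15 were higher in replicate 2 as deposited, against 74.3% of expressed genes. Relative to the median gene, 11 were higher and 7 lower, with a median of 0.07 and a range from -0.94 to 0.93. The interval lay above 0 for 8 and below 0 for 4, against 35.8% and 35.7% of expressed genes. Across expressed genes the quartiles of this ratio were -0.31 and 0.29. Hmgcs1, Sqle, Cyp51, Fdft1 and Fdps sat close together near the upper quartile, between 0.28 and 0.40, a set picked out after its values had been seen. Over all 29 members the median was 0.07, with 17 above and 12 below the median gene and intervals apart from 0 for 22, against 71.5% of expressed genes, which is near the same share. The members therefore did not differ between the libraries in a common direction once the median gene was set to 0.

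**Figure D2:**
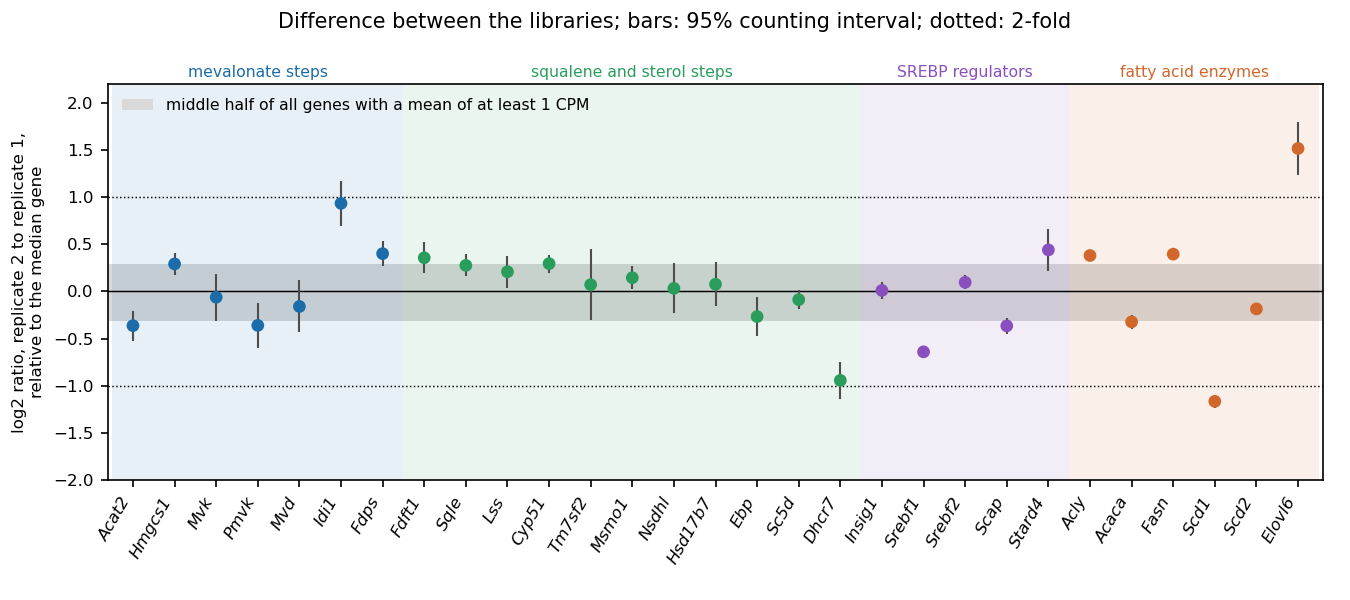
Relative log2 ratio of replicate 2 to replicate 1 for each member, with 95% counting intervals as bars, the range between the quartiles of expressed genes in grey (-0.31 to 0.29) and dotted lines at 2-fold. Elovl6 at 1.52 and Scd1 at -1.17 lie beyond the dotted lines, Idi1 at 0.93 and Dhcr7 at -0.94 lie just inside them, and the members are spread on both sides of 0.

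Among the regulators, Srebf1 had 112 and 88.3 CPM in replicates 1 and 2. Srebf2 had 60.6 and 80.1 CPM. The pair lay on opposite sides of the median gene, with relative log2 ratios of -0.64 for Srebf1 (-0.70 to -0.58) and 0.10 for Srebf2 (0.02 to 0.17). Per kb of exon, the log2 ratio of Srebf2 to Srebf1 was -1.23 in replicate 1 but -0.49 in replicate 2, a mean of -0.86 ± 0.52 (SD, n = 2). Srebf1 therefore exceeded Srebf2 per kb by more than the spread between libraries, but with no division by length the mean of -0.51 was within its SD of 0.52. The values are gene totals and do not separate the transcripts of the SREBP-1a and SREBP-1c isoforms.

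Scap, the escort and sterol sensor, had 58.5 and 56.1 CPM in replicates 1 and 2. Insig1, the anchor of SCAP and itself a known SREBP target, had 41.1 and 51.2 CPM. At a relative log2 ratio of 0.01, Insig1 was the member closest to the median gene. Its paralog Insig2, no member, had 16.2 and 16.3 CPM. Insig1 exceeded Insig2 per kb by a log2 ratio of 1.67 ± 0.22 (SD, n = 2), a difference larger than the spread. Stard4, a carrier of cholesterol between membranes, was the lowest regulator per kb and had 6.08 and 10.2 CPM, a relative log2 ratio of 0.44 (0.22 to 0.66).

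The fatty acid enzymes held the members furthest apart between the libraries. Acly, which makes cytosolic acetyl-CoA from citrate, had 81.6 and 131 CPM in replicates 1 and 2. Acaca, which carboxylates acetyl-CoA to malonyl-CoA, had 71.7 and 70.8 CPM. Fasn, the synthase that builds palmitate, had 111 and 180 CPM. Acly and Fasn were higher in replicate 2, with relative log2 ratios of 0.38 and 0.40, while Acaca, the enzyme between them, lay at -0.32. Within the libraries Fasn exceeded Acaca per kb by log2 ratios of 1.27 and 1.99. For Acaca, 30.4% of the 50-base words occur in other genes, mostly in Gm5182, which was assigned 5.58 and 10.9 CPM. The annotated exons of Acaca cover 17074 bases and its longest coding transcript 9513, so its level per kb is uncertain.

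Stearoyl-CoA desaturases put the double bond into saturated fatty acids, and the mouse has several. Scd2 had 282 and 306 CPM in replicates 1 and 2 and was the highest member per kb in both. Scd1 had 114 and 62.7 CPM, a relative log2 ratio of -1.17 (-1.23 to -1.10), whereas Scd2 lay nearer the median gene at -0.19. Per kb, Scd2 exceeded Scd1 by 2.21-fold in replicate 1 but by 4.37-fold in replicate 2, a mean log2 ratio of 1.64 ± 0.69 (SD, n = 2). The difference between these desaturases was larger than its spread, and its size differed between the libraries. Scd2 shared 2.66% of its 50-base words with Scd1. Of the other desaturases of the family, Scd3 had 0.0247 and 0.0251 CPM, below the level of 3 reads at 0.0693 and 0.0712 CPM, and Scd4 had 0.311 and 0.368 CPM. Scd3 and Scd4 were named after their values had been seen.

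Elovl6, the elongase that extends palmitate, was the lowest fatty acid enzyme per kb in both libraries and had 2.92 and 10.6 CPM, about 127 and 446 reads. Its relative log2 ratio of 1.52 (1.23 to 1.80) was the largest of the 29 members. Elovl6 was the only member more than 2-fold higher in replicate 2 relative to the median gene, and Scd1 the only member more than 2-fold lower. The background was 7.43% of expressed genes more than 2-fold higher and 6.06% more than 2-fold lower, so 1 member in each direction is not above the background. Without the centring on the median gene, 11.4% of expressed genes were past 2-fold higher and 3.71% lower, and Elovl6 and Idi1 were then the members past 2-fold, both higher.

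**Figure D3:**
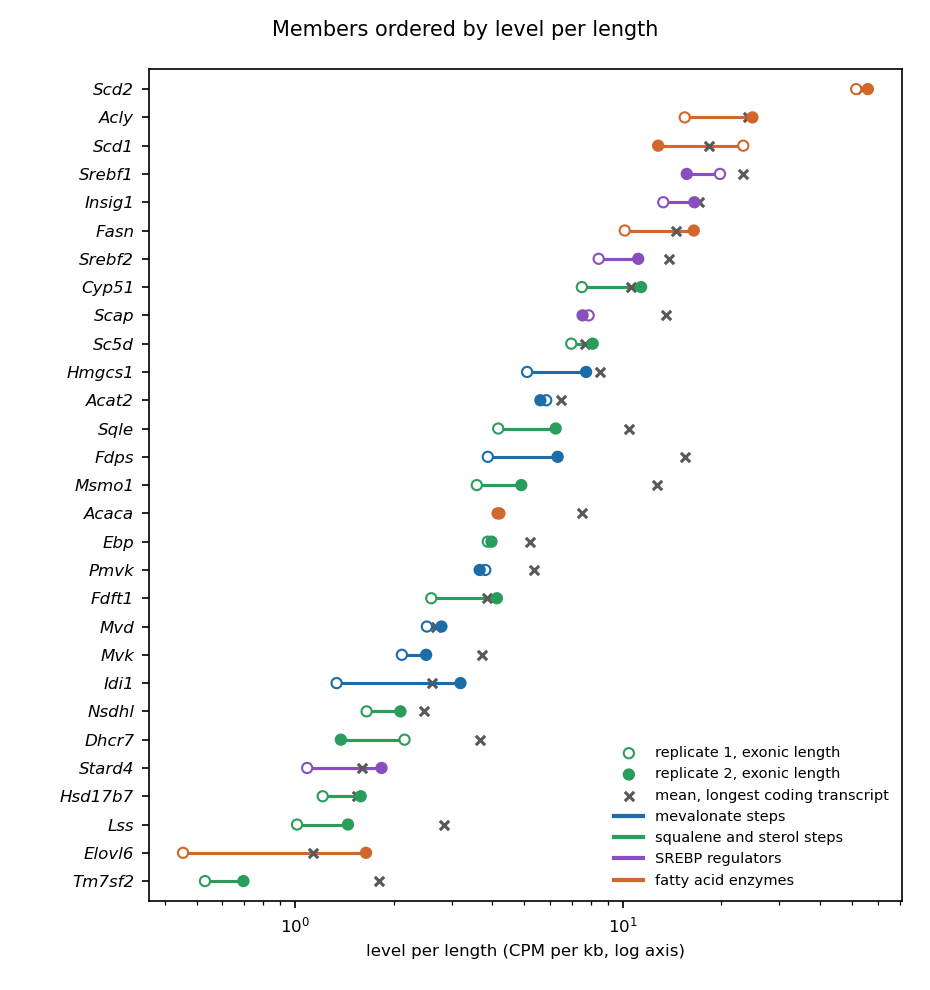
Levels per kb of annotated exon on a log axis, ordered by the mean of both libraries, with open and filled circles for replicates 1 and 2 and crosses for the mean per kb of the longest coding transcript. Scd2 stands at the top at 51.5 and 56.0 CPM per kb, the sterol enzymes lie between 0.530 and 11.4 CPM per kb, and the crosses of Fdps, Msmo1, Lss and Tm7sf2 lie well to the right of their circles.

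In the order of levels per kb of exon, Scd2 came first with a mean of 53.8 CPM per kb, followed by Acly with 20.2, Scd1 with 18.1, Srebf1 with 17.7 and Insig1 with 14.9. The order of the sterol enzymes began with Cyp51 at 9.43, Sc5d at 7.53, Hmgcs1 at 6.42 and Acat2 at 5.72 CPM per kb and ended with Lss at 1.23 and Tm7sf2 at 0.613. Of the 17 neighbouring pairs of sterol enzymes, 6 kept their order in both libraries with a mean log2 difference larger than its SD, among them Cyp51 over Sc5d and Lss over Tm7sf2. The other neighbours, such as Hmgcs1 and Acat2, did not differ beyond their spread. Among fatty acid enzymes 3 of 5 neighbouring pairs differed beyond it, namely Scd2 over Acly, Fasn over Acaca and Acaca over Elovl6, whereas Acly, Scd1 and Fasn came in another order in each library. Among regulators 3 of 4 did so, and Srebf1 and Insig1 differed in order between the libraries. Neighbours were set by the mean level in these same libraries, so these counts describe the libraries and are no test of the order. The log2 ratio of the median sterol enzyme to the median fatty acid enzyme was -1.98 ± 0.07 (SD, n = 2). The order of the sterol enzymes depends on the length. Per kb of the longest coding transcript it began with Fdps at 15.5, Msmo1 at 12.8 and Cyp51 at 10.6 CPM and ended with Tm7sf2 at 1.80 and Hsd17b7 at 1.55 CPM. That length moved Fdps from rank 14 to rank 6 of the 29 and Lss from rank 27 to rank 22, and Scd2 kept rank 1.

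The other genes of these pathways, from lists fixed together with the members, gave the setting of these values. Of 5 other sterol synthesis genes 4 were listed and 3 were expressed, with a median relative log2 ratio of 0.13. Ggps1, which makes the prenyl donor geranylgeranyl diphosphate, had 28.97 and 34.6 CPM in replicates 1 and 2. Lbr was the next by CPM, and Idi2 was listed at 0. The 5 other genes of SREBP processing all averaged more than 10 CPM, with a median relative log2 ratio of -0.01. Mbtps1, the protease that makes the initial cut in the SREBPs, had 180 and 222 CPM. Syvn1, a ubiquitin ligase gene, had 81.9 and 87.0 CPM. Insig2 had the lowest CPM of this list, and no gene of either list was past 2-fold.

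Of 15 genes of sterol uptake, storage and efflux, 12 were expressed, with a median relative log2 ratio of -0.22. The lysosomal cholesterol carriers had the highest CPM, Npc2 with 177 and 235 and Npc1 with 99.3 and 102, and Ch25h was listed at 0. Of the 12, 3 genes, Apoe, Abca1 and Nr1h3, were more than 2-fold lower in replicate 2 relative to the median gene, against 6.06% of expressed genes. None was more than 2-fold higher, against 7.43%. Of 22 other fatty acid genes, 16 were expressed, with a median relative log2 ratio of -0.03. Me1, the malic enzyme that supplies NADPH, had 265 and 298 CPM. Fads3, of the fatty acid desaturase family, had 146 and 133 CPM. Elovl2 and Elovl3, elongases of other chain lengths, were listed at 0. Of the 16, 2 genes, Elovl4 and Elovl7, were more than 2-fold higher in replicate 2 and none more than 2-fold lower, beside the same shares of expressed genes. Those 5 genes averaged less than 10 CPM and were named after their values had been seen. Past 2-fold in either direction were 13.5% of expressed genes, but 7.1% of genes that averaged 10 CPM or more.

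**Figure D4:**
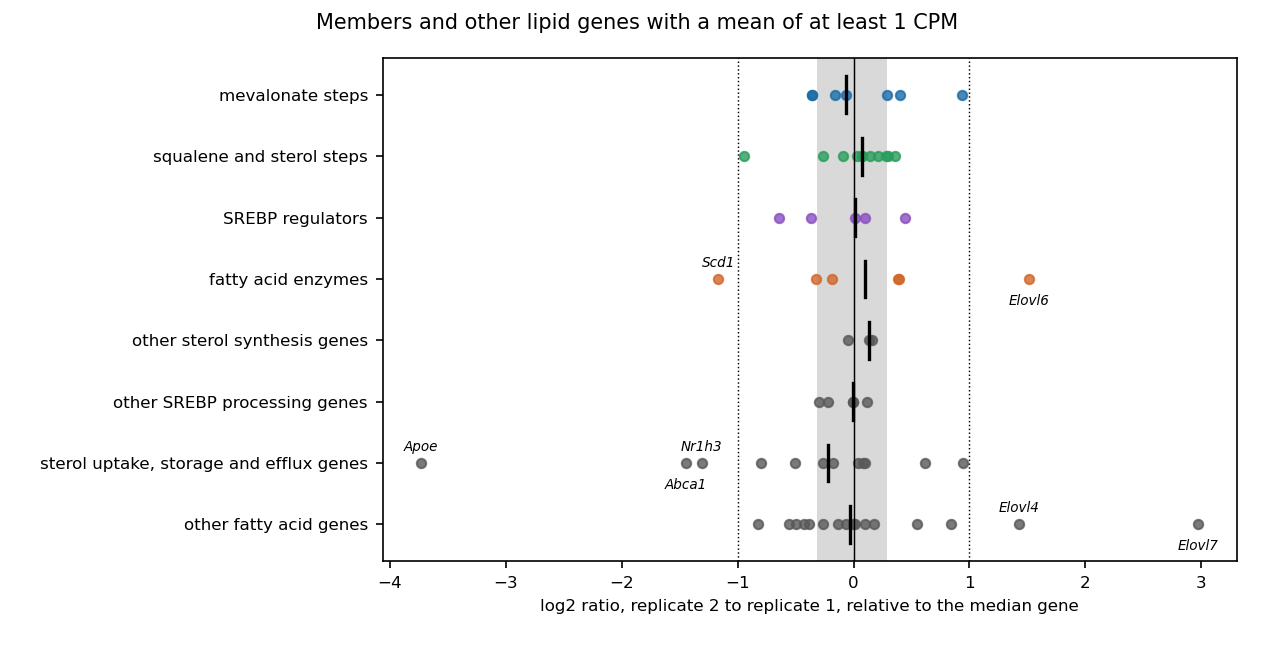
Relative log2 ratio of replicate 2 to replicate 1 for members (colours) and other lipid genes (grey points) that were expressed, with black bars at list medians, the range between the quartiles of expressed genes in grey and dotted lines at 2-fold. The list medians lie between -0.22 and 0.13. Beyond 2-fold, Scd1, Apoe, Abca1 and Nr1h3 lie on the lower side, and Elovl6, Elovl4 and Elovl7 on the higher side.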

How the data were processed

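Per the study's methods and the submitters' processing notes, the authors mapped single-end reads of stranded poly(A) libraries to GRCm38 (STAR 2.7.3a, GENCODE M25, in Partek Flow 10.0.21.0801). They quantified genes with Partek E/M. The deposited values of each library are CPM with an offset of 0.0001, which was subtracted. Of values below 0.5 CPM, 64.8% and 63.9% were whole multiples of the lowest step (within 0.02 reads), so read counts could not be restored and a count test was not run. Log2 ratios between libraries used a pseudocount of 0.1 CPM, which understates the change of low genes, and were centred on the median of the 12631 expressed genes (average of 1 CPM or more). Levels per kb used exonic lengths of GENCODE M21, in which 97.2% of gene names were found. A ratio between genes was taken within each library, and its SD is over 2 libraries. No p-value was computed. All 29 members are named. Of the other lists, the rule named the highest 2 and lowest by mean and genes past 2-fold that averaged 10 CPM or more. Members, lists and rule were chosen with earlier results of these data known. Some genes of these lists are not reported here, and list values are without them. The computation was tested on simulated data. Alternatives changed scaling, centring, pseudocount, filter, length and library. Python 3.11.15, numpy 2.4.6, pandas 2.3.3 and matplotlib 3.10.9 were used.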

Additional observations from a re-analysis of the deposited data

How the results depend on the processing

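For 8 results, 44 alternatives were computed: 36 moved the value by less than its spread, 7 moved it by more and 1 turned its sign. The spread was the SD between the libraries, 0.14 (the typical half-width of the 95% counting interval) for median log2 ratios, and 1.5 times for counts. For ratios between genes, leaving out 1 library moves the mean by less than that SD by arithmetic. Those alternatives are among the 36 and say nothing about stability. With no centring, the median log2 ratio was 0.38 for the 29 members, 0.38 for the 18 sterol enzymes and 0.40 for the 6 fatty acid enzymes, as a constant of 0.30 was not subtracted. With only genes of at least 10 CPM, 19 members were left, 1 of them past 2-fold, and the median was 0.22 for the sterol enzymes and -0.20 for the fatty acid enzymes, from which Elovl6 was then missing. The log2 ratio of the median sterol to the median fatty acid enzyme was -1.60 when the longest coding transcript set the length and -3.02 with no length. With no length, the log2 ratio of Srebf2 to Srebf1 was -0.51 ± 0.52, no longer beyond its SD. Leaving out 1 library gave 19 to 21 members at 10 CPM, -1.23 to -0.49 for Srebf2 to Srebf1, 1.14 to 2.13 for Scd2 to Scd1 and -2.04 to -1.93 for the arms. Without the 10 highest genes in the total, 26 members reached 10 CPM, against 19. That smaller total raises the CPM of every gene, and the share of all genes at 10 CPM was not computed for it. The higher count is therefore not a result about the members. No paired analysis was possible because the libraries are of 1 condition. Depth limits Tm7sf2 most, whose counting interval spans -0.30 to 0.45.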

Other observations

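The genes in this paragraph were set side by side after their values had been seen. Apoe, the apolipoprotein of cholesterol transport, had 7.86 and 0.641 CPM in replicates 1 and 2, a relative log2 ratio of -3.73. Abca1, the cholesterol exporter, had 2.84 and 1.23 CPM, a ratio of -1.45. Nr1h3, which encodes the sterol-sensing receptor LXR-alpha, had 8.43 and 4.15 CPM, a ratio of -1.31. Abcg1, another sterol exporter, had 0.739 and 0.546 CPM, with a counting interval that included 0 (-1.46 to 0.09). Nr1h2, which encodes LXR-beta, had 46.3 and 50.7 CPM and lay at -0.17. Scarb1, a receptor for high-density lipoprotein, and Soat1, which esterifies cholesterol for storage, were on the higher side, at 0.94 and 0.62. The desaturase genes Fads1 and Fads2 lay at -0.50 and -0.82. The elongase Elovl7 had 0.185 and 2.66 CPM, and Elovl4 had 0.624 and 2.30 CPM. The cell type markers went both ways. Matn3, Dcn and Plin4 were lower in replicate 2, at -4.10, -2.02 and -1.76. Pparg, Sp7 and Dmp1 were higher, at 1.17, 1.44 and 7.25. The part of the markers in these values was not tested.

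The sterol enzymes Sqle, Cyp51, Msmo1 and Sc5d use molecular oxygen, and the cultures were kept under low oxygen. Their mean levels per kb of exon were 5.20, 9.43, 4.24 and 7.53 CPM, all above the median of 3.55 CPM for the 18 sterol enzymes. This set was also formed after its values had been seen, and no library grown at another oxygen level was analysed here.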
